A study of Mus musculus with 6 samples.

Results

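The early transcript response of cultured mouse eosinophils to IL-33 was set against the response to IL-4, gene by gene, 1 h after the cytokine was added. The members were the genes with an FPKM (a read count divided by transcript length and sequencing depth) of at least 1 in at least 1 of 3 libraries: untreated cells at 1 h, IL-4 at 1 h and IL-33 at 1 h. They numbered 10748 of the 22548 gene symbols in the tables, and 156 of them were small RNA genes, which were left out of the counts below, so that 10592 genes were compared. The change with a cytokine was log2((treated FPKM + 1) / (control FPKM + 1)), and the difference between the cytokines was the change with IL-33 minus the change with IL-4.

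The cells were wild-type BALB/c bone marrow cells of low density, from mice aged 4 to 8 weeks, grown for 14 days into eosinophils. During the initial 4 days of culture all groups shared 100 ng/ml each of stem cell factor (SCF) and FLT3 ligand, which were then replaced by 10 ng/ml of IL-5. On the last day, 1 culture was given IL-4 for 1 h, another was given IL-33 for the same time, each at a dose of 10 ng/ml, and the control was given neither. Each group had 1 library, so the spread within a group is unknown and p-values are not given. Whether cells of several mice were pooled was not given in the sources used here. "Rose" and "fell" below stand for a change against the control of at least 1 on the log2 scale, a rule of size and not a test. Counts of list members that stood higher or lower with IL-33 apply the same size to the difference between the cytokines.

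IL-33 is an alarmin of the IL-1 family. Its receptor, ST2 (Il1rl1) with the IL-1 receptor accessory protein, recruits MyD88 and IRAK kinases and activates NF-kB and MAP kinases, which switch on cytokine genes together with the inhibitors that end the signal. IL-4 binds the IL-4 receptor alpha chain (Il4ra) and activates JAK kinases and the transcription factor STAT6, whose early targets include the feedback inhibitors of the SOCS family. Eosinophils carry receptors for both cytokines and are themselves a source of type 2 cytokines.

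The 3 libraries were alike in their breadth. Between 10387 and 10458 genes reached an FPKM of 1 in the IL-33, IL-4 and control libraries. The value of a single read, read from steps in the low values, put the depth of the IL-4 library at 0.975 and that of the IL-33 library at 1.16 times that of the control. A single read in a transcript of 1 kb was worth about 0.051 FPKM in the control, so that 1 FPKM in such a transcript rested on about 19.6 reads. The control library stood in the IL-33 table and in the IL-4 table, and its values in the former were lower by a constant factor of 0.945 for 100% of 13621 transcripts, within 0.1%. Control levels below are those of the IL-4 table, and each change used the control of its own table. The changes with either cytokine therefore share a control library, while the control cancels out of their difference apart from the added 1. Eosinophil markers were abundant in the control: Prg2, the major basic protein, was at 46216 FPKM and Epx, eosinophil peroxidase, at 2158. Markers of other cells were present too, at summed levels of 6942 for 9 neutrophil genes, 2917 for 8 monocyte and macrophage genes and 279 for 7 mast cell and basophil genes. No member of these 4 marker lists differed between the cytokines by the rule. Heart muscle genes were also detected in each of these 3 libraries, at a sum of 150 in the control, 111 with IL-4 and 110 with IL-33. In the libraries of 4 h, used further below, the heart muscle genes Myl3 and Mb were listed at 0.

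The responses differed greatly in extent. The difference was at least 1 for 210 genes (1.98% of those compared) and at most -1 for 33 (0.312%). With IL-33, 208 genes rose (1.96%) and 30 fell (0.283%) against the control. With IL-4, 11 rose (0.104%) and 2 fell (0.0189%). The median change over all genes was -0.01 with IL-33 and -0.02 with IL-4, and the median difference was 0.01. Among the 210 genes with the higher level under IL-33, 59 differed by at least 2, 23 by at least 3 and 10 by at least 4.

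Genes that responded to a single cytokine were defined as those that changed by at least 1 with it, by less than 0.5 with the other, and differed by at least 1 between them. IL-33 alone met this for 180 genes that rose (1.7% of those compared) and 21 that fell (0.198%). IL-4 alone met it for 1 gene that rose and for none that fell. That gene, the histone gene Hist2h4, had a listed control value of 0, with 1.70 FPKM under IL-4 and 0.27 under IL-33, which correspond to about 11 and 2 reads. Histone H4 genes are near-identical copies, so its value is uncertain. With both cytokines, 3 genes rose and 1 fell. Of the 208 genes that rose with IL-33, a further 13 had a smaller change with IL-4 of 0.5 to 1, and 12 missed the definition because the difference was under 1. The median change with IL-4 over the 208 genes was 0.02.

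**Figure D1:**
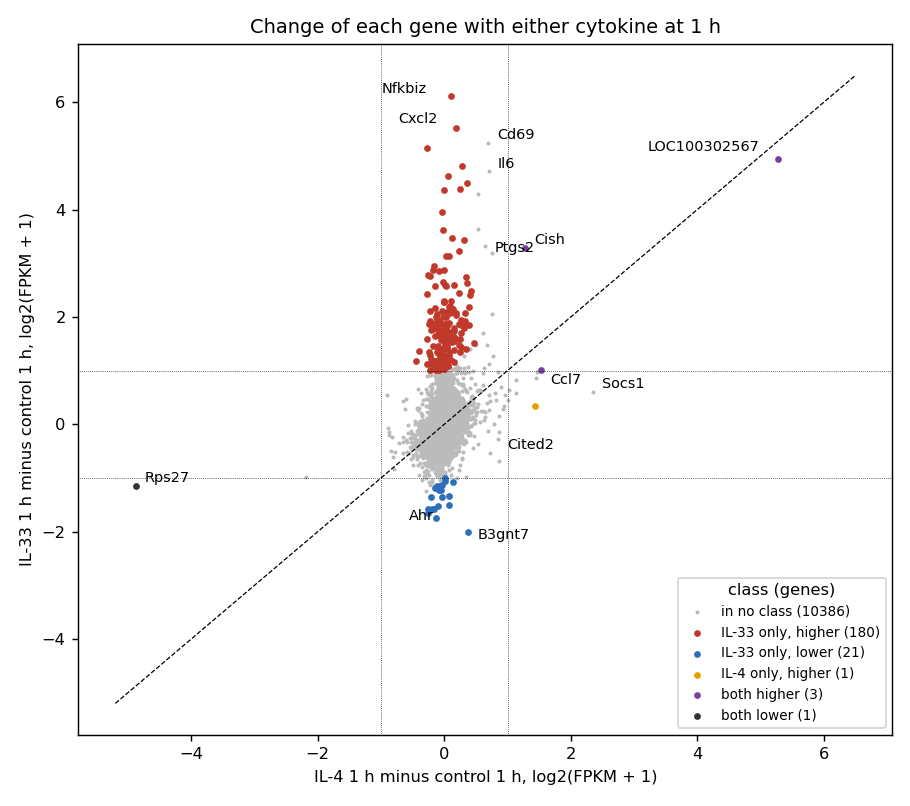
Each point is a gene, with its change against the control at 1 h with IL-4 on the x axis and with IL-33 on the y axis, both on the log2(FPKM + 1) scale; dotted lines mark the rule of 1 and the dashed line equal change. The 180 genes that rose with IL-33 alone reach 6.11 on the y axis. Their column near 0 on the x axis follows from how the class was defined. Few points leave the centre along the x axis.

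The choice of control library bears on these classes. The untreated library of 1 h itself stood at least 1 above that of 4 h, after scaling by their median ratio, for 143 genes (1.35% of those compared), and 27 of the 180 IL-33 genes were among them. Egr3, an immediate early transcription factor, was at 75.7 FPKM in the untreated library of 1 h and 3.39 in that of 4 h, with 88.7 under IL-4 and 263 under IL-33 at 1 h. Fosb, an AP-1 subunit, was at 9.94 and 0.27 in the same control libraries. Against the control of 4 h, 104 genes rose with IL-33 alone and 133 with both cytokines, and 107 of those 133 were also higher by the rule in the untreated library of 1 h. Of the 180 genes that rose with IL-33 alone against the control of 1 h, 95 were among the 104. Of the 21 that fell, 12 stayed in their class. Single-cytokine counts are thus relative to untreated cells of the same hour.

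NF-kB feedback genes led the IL-33 response. Of 16 inhibitors of NF-kB signalling, 9 stood higher with IL-33 than with IL-4 and none lower, and the list's median difference was 1.21. Nfkbiz (chr16:55811490-55838754, build mm9), which encodes the nuclear inhibitor I-kappa-B zeta, had the largest difference of all 10592 genes. It was at 4.55 FPKM in the control, 4.95 with IL-4 and 366 with IL-33, so that its change was 0.10 with IL-4 and 6.11 with IL-33. Nfkbia, the inhibitor I-kappa-B alpha, was at 72.7 in the control, 71.3 with IL-4 and 1083 with IL-33, and the control and IL-4 libraries lay within 3 FPKM of each other. Tnfaip3, the ubiquitin-editing enzyme A20, was at 13.2, 15.8 and 280 FPKM in the same order. Nfkbie, Nfkbid and Bcl3, further members of the I-kappa-B family, differed by 3.10, 3.11 and 2.99. The changes of these 6 genes with IL-4 lay between -0.22 and 0.24. The remaining 7 inhibitors, among them Tnip1 at a difference of 0.68 and the adaptor Traf3 at 0.75, stayed under the rule.

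The subunits of NF-kB were split. Of 10 subunit and IKK genes, 4 stood higher with IL-33 and none lower, with a median difference of 0.11. Nfkb2 was at 16.0 FPKM in the control, 15.1 with IL-4 and 116 with IL-33, and Relb, its partner in the non-canonical dimer, at 9.81, 7.92 and 54.3. Rel differed by 1.49 and Rela by 1.09. Nfkb1, the precursor of p50, was at 47.4, 47.3 and 47.1 FPKM, and the kinase subunits Chuk, Ikbkb and Ikbkg differed by 0.06, 0.05 and -0.13. Map3k14, the NF-kB-inducing kinase, had the lowest difference of the list at -0.92. Upstream of them, none of 18 genes of the IL-33 receptor and MyD88 pathway differed between the cytokines by the rule. The kinase gene Map3k8, at 0.62 FPKM in the control, 1.29 with IL-4 and 3.41 with IL-33, was the 1 member that rose with IL-33, and its difference was 0.98. Il1rl1 was at 55.8 FPKM in the control, 61.6 with IL-4 and 44.2 with IL-33, and Myd88 at 41.6, 38.9 and 59.1.

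**Figure D2:**
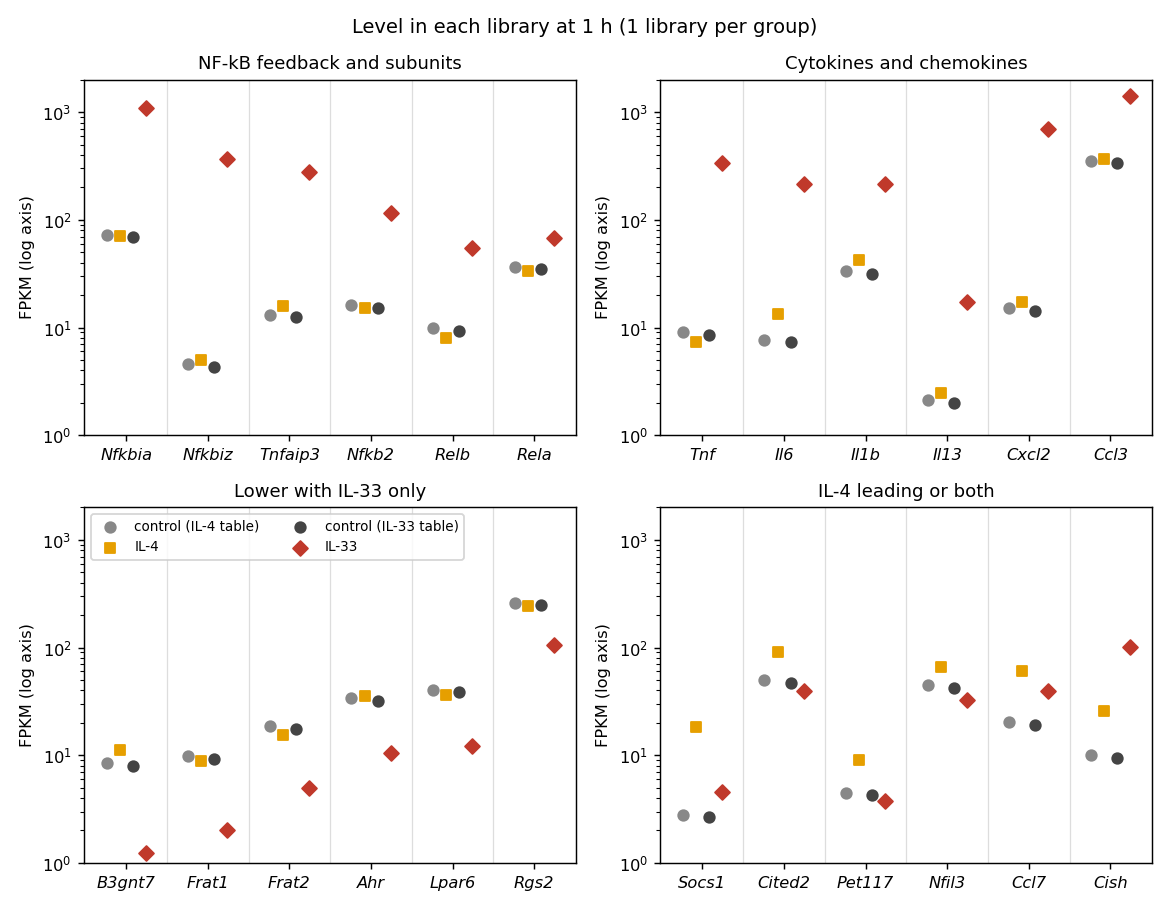
FPKM on a log axis of 24 genes in each library at 1 h, with grey circles for the control in either table, orange squares for IL-4 and red diamonds for IL-33; each point is 1 library. The IL-33 points stand above the other libraries in the upper panels and below them at lower left, and the IL-4 points stand highest at lower right except for Cish.

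Part of the cytokine genes rose with IL-33. Of 23 cytokine and growth factor genes, 8 stood higher with IL-33 than with IL-4 and none lower, with a median difference of 0.56, and none rose or fell with IL-4. The IL-4 changes farthest from 0 in this list were 0.96 for Hbegf (from 0.33 to 1.59 FPKM), 0.70 for Il6 and -0.58 for Pdgfb. Tnf, a leading inflammatory cytokine, was at 9.09 FPKM in the control, 7.36 with IL-4 and 339 with IL-33. Il6, a cytokine of acute inflammation, was at 7.73, 13.2 and 217 FPKM, and its change with IL-4 of 0.70 kept it out of the IL-33-alone class. Il1b was at 33.3, 42.5 and 216, Il1a at 35.5, 47.5 and 182, and Il1rn, the antagonist of both, at 277, 296 and 1103. The IL-1 agonists and their antagonist thus stood highest in the same library, with differences of 2.40, 2.00 and 1.97.

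The type 2 cytokines behaved unequally. Il13 was at 2.13 FPKM in the control, 2.48 with IL-4 and 17.3 with IL-33, a difference of 2.45, and those levels correspond to about 50, 58 and 499 reads. Il4 was already at 80.3 FPKM in the control, with 81.2 under IL-4 and 103 under IL-33, a difference of 0.42 that misses the rule. Il5 was listed at 0 in all 3 libraries. Csf2, which encodes GM-CSF, stayed below the FPKM minimum, at 0.06, 0.12 and 0.75, or about 1, 2 and 14 reads.

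Of 20 chemokine genes, 8 stood higher with IL-33 and none lower, with a median difference of 0.68. Against the control, 8 rose with IL-33 and 3 with IL-4, and the latter were Ccl2, Ccl7 and Ccl12, with changes of 1.46, 1.53 and 1.03. Cxcl2, a neutrophil attractant, was at 15.2 FPKM in the control, 17.4 with IL-4 and 699 with IL-33. Cxcl10, a ligand of CXCR3, was at 1.91, 2.02 and 68.0. Ccl3 was at 354, 366 and 1423 FPKM and Ccl4 at 140, 176 and 505, so both started from a high level. Ccl20 had a listed value of 0 without a cytokine and under IL-4, and stood at 3.83 under IL-33. Ccl6, the most abundant chemokine gene of the list, was at 7691, 7779 and 7290 FPKM and differed by -0.01. Among 37 chemokine and cytokine receptors 3 stood higher with IL-33: Ccrl2, a chemerin-binding receptor, at 62.7, 68.0 and 666 FPKM, Il10ra with a difference of 2.00 and Ifnar1 with 1.09. Ccr3, the eotaxin receptor of eosinophils, was at 533 in the control, 520 with IL-4 and 396 with IL-33, a difference of -0.31.

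Promoter sequence was examined as a property that the classes did not use. RefSeq promoters (GRCm38.p6, a reference of another strain than BALB/c) were searched in the 250 bases before each start site, on both strands, with genes counted once. Promoters were listed for 8518 of the 10592 genes and for 149 of the 180 IL-33-alone genes that rose. The NF-kB motif (GGGA, any 2 bases, then TTCC) was present for 9 of the 149 genes, or 6.04%, and for 1.51% of all 8518. The AP-1 motif TGAGTCA was found for 9.40% against 4.10%, and the cyclic AMP response element TGACGTCA for 5.37% against 3.19%. For the STAT6 motif (TTC, any 4 bases, then GAA) the shares were 4.70% and 5.61%, and for the STAT5-type motif TTCNNNGAA they were 9.40% and 7.17%. With the first listed promoter of each gene alone, the NF-kB shares were 4.03% and 1.21%. Some matches overlap on the opposite strand, as in the Cxcl promoters, and a match is a description of the letters and not a measured binding site. Promoters of the 21 genes that fell were listed for 76.2%, too few for a share to be read.

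The stretches around the NF-kB motif are shown for 5 genes that rose with IL-33 alone and for Il6, 5′ to 3′ on the strand of the gene, with the motif in capitals, to let the sites be compared. The windows lie at chr5:90903772-90903841 (plus strand) for Cxcl2, chr5:90785998-90786067 (plus) for Cxcl3, chr5:90891144-90891213 (plus) for Cxcl1, chr5:92349009-92349078 (minus) for Cxcl10, chr12:55492648-55492706 (minus) for Nfkbia and chr5:30013040-30013109 (plus) for Il6.
Cxcl2: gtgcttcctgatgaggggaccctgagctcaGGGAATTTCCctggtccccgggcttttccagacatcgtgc
Cxcl3: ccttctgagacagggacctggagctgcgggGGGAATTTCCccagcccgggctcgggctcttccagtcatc
Cxcl1: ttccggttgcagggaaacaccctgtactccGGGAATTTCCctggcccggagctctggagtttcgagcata
Cxcl10: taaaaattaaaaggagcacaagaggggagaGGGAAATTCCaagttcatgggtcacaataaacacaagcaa
Nfkbia: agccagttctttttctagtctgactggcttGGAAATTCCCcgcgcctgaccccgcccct
Il6: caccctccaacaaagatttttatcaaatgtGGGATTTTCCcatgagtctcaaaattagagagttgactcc
Cxcl1, Cxcl2 and Cxcl3, neighbouring chemokine genes of 1 family, carry the same 10 letters, with differences between the cytokines of 2.06, 5.33 and 2.27. The motif of Nfkbia reads on the opposite strand. Il6, with the motif 44 bases before its start, also had a change of 0.70 with IL-4, whereas Cxcl10 changed by 0.05 and Nfkbia by -0.03.

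Transcript sequence differed as well. The AU-rich heptamer TATTTAT, a motif tied to rapid mRNA decay, lay in the last 1000 bases of the transcript for 34.6% of 179 IL-33-alone genes that rose and for 18.3% of 10403 genes in all (longest GENCODE transcript matched). The median transcript length was 2667 bases in the former and 2839 in the latter. This motif was chosen after values of these data had been seen. In the control, these genes had a median of 13.01 FPKM against 11.5 for all genes compared.

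The list of immediate early factors, the largest with 40 genes compared, gave more genes past the rule than any other. The inhibitors of NF-kB signalling, with 9 of 16 higher, had a larger part of their list past it. Of 40 AP-1, EGR, NR4A and related genes, 14 stood higher with IL-33 and 1 lower, with a median difference of 0.66. Nr4a3, an orphan nuclear receptor, was at 2.14 FPKM in the control, 2.89 with IL-4 and 31.6 with IL-33. Junb was at 65.5, 59.8 and 252, and Egr1 at 33.9, 40.4 and 83.2. Fos, in contrast, was at 58.5, 57.0 and 35.5, a difference of -0.59. Zc3h12a, the RNase Regnase-1 that cuts cytokine mRNAs, was at 7.10, 9.37 and 172 FPKM, and it led the 2 of 11 mRNA decay factors that stood higher with IL-33 than with IL-4. A further member, Zfp36l1, rose by 1.12 with IL-33 and had a change of 0.71 with IL-4. Of 14 MAP kinase phosphatases and SPRY inhibitors, 3 stood higher with IL-33, among them Dusp2 with a difference of 2.18.

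Surface and survival genes followed. Of 36 adhesion and activation genes, 9 stood higher with IL-33 and none lower, with a median difference of 0.14. Cd69, an early activation antigen, was at 2.95 FPKM in the control, 5.36 with IL-4 and 142 with IL-33. Icam1, a ligand of leukocyte integrins, was at 9.95, 9.77 and 126, and Clec4e, the receptor Mincle, at 72.1, 76.2 and 603. Of 25 BCL2-family and death or survival genes, 7 stood higher with IL-33, with a median difference of -0.03. These 7 include genes of opposite known roles: Birc3, an inhibitor of apoptosis, was at 71.0, 70.8 and 334 FPKM, while Bcl2l11, the killer protein BIM, was at 37.3, 42.4 and 152. Mcl1, a survival factor of granulocytes, differed by 1.07. The Bcl2a1 copies also rose, but their reads may be shared among near-identical genes.

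Metabolic mediators rose in part. Of 25 genes of arginine, itaconate, prostaglandin and adenosine pathways, 5 stood higher with IL-33. Irg1, which makes itaconate, was at 27.4 FPKM in the control, 27.2 with IL-4 and 551 with IL-33. Adora2b, an adenosine receptor, was at 6.07, 9.28 and 132, and Ptgs2, the inducible cyclooxygenase, at 4.44, 7.53 and 50.7. Cdc42ep2, a CDC42 effector of the actin skeleton outside these lists, was at 0.70, 1.06 and 45.5 FPKM. In all, 73 of the 180 IL-33-alone genes that rose belong to at least 1 list, or 40.6%, against 533 or 5.03% of all genes compared, and the lists were drawn up with earlier results known. The summed level of all 180 genes made up 0.939% of total FPKM in the control, 0.990% with IL-4 and 3.56% with IL-33. These genes were chosen on the same values, so the order of these shares follows from the choice and only describes its size.

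Cd69, Il6, Adora2b and Ptgs2 belong to the 13 IL-33 genes with a smaller change under IL-4, at 0.69, 0.70, 0.54 and 0.65. Others were Pde4b, a cyclic AMP phosphodiesterase (8.63 FPKM in the control, 15.3 with IL-4 and 82.4 with IL-33), Pim3, a kinase gene known as a cytokine target (10.1, 17.7 and 42.8), and Egr2 (13.1, 23.0 and 31.3). For Egr2, a known IL-4 target of macrophages, the difference was 0.51, so its responses to the cytokines were the most alike of these 3. In each of them the IL-4 library stood between the control and the IL-33 library.

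**Figure D3:**
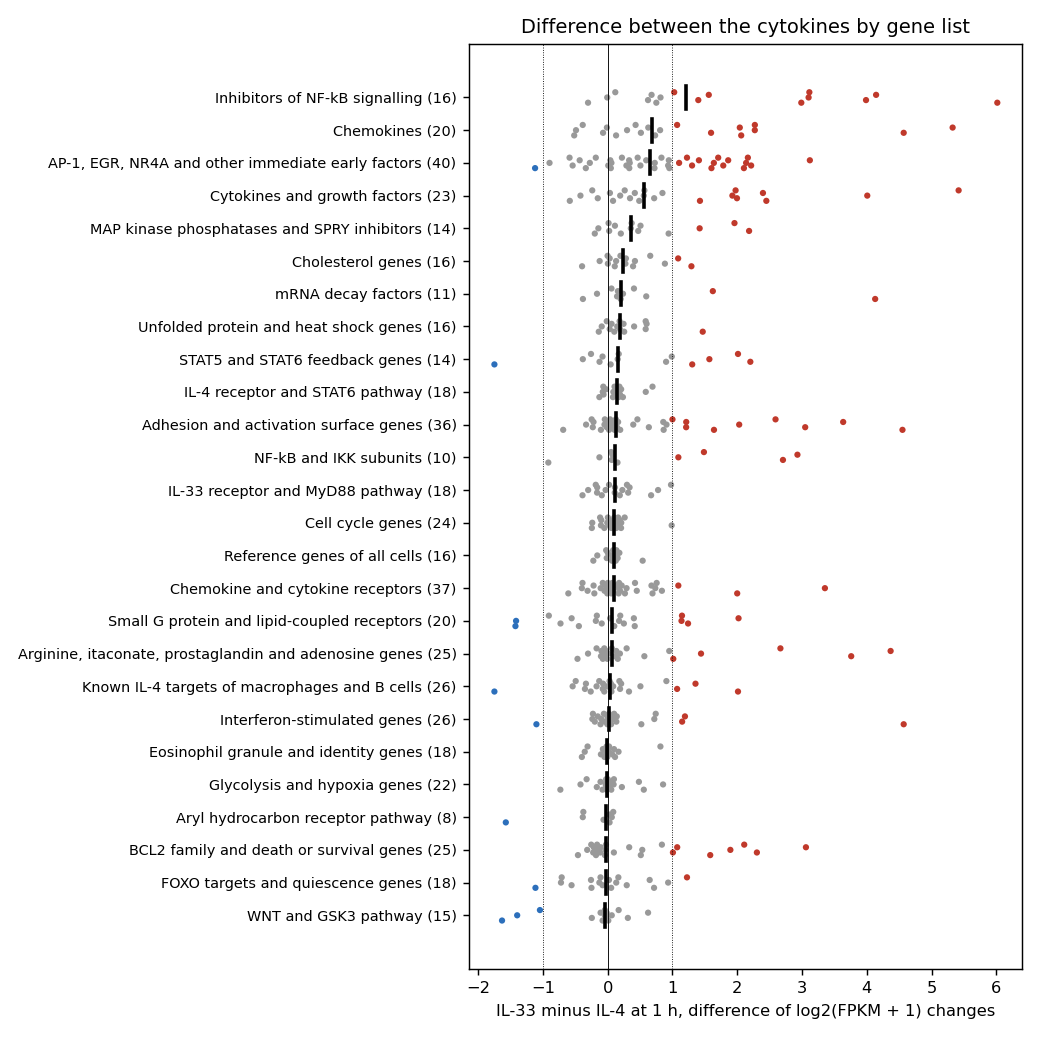
Each point is a gene, with the difference between IL-33 and IL-4 at 1 h on the x axis (log2 scale) and its gene list on the y axis; the number of genes compared is in parentheses and the bar marks the list's median. Inhibitors of NF-kB signalling stand highest, with a median of 1.21, and the WNT and GSK3 list has 3 genes at -1 or below.

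Fewer genes were lower with IL-33. The rule of size, with 1 added, requires a control FPKM of at least 1 in any gene that fell. The 21 genes that fell with IL-33 alone had changes with IL-33 from -2.00 to -1.01. Their median change with IL-4 was -0.08, and the class definition itself keeps this change small. B3gnt7 (chr1:88199796-88203880, mm9), a glycosyltransferase that extends keratan sulfate chains, was at 8.45 FPKM in the control, 11.3 with IL-4 and 1.25 with IL-33. About 428, 564 and 77 reads stand behind these levels. It had the largest negative difference, -2.38, and was the sole gene at or below -2.

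The WNT and GSK3 list had 3 of 15 genes lower with IL-33 and none higher, with a median difference of -0.04. Frat1 and Frat2, neighbouring genes (chr19:41904460-41907073 and chr19:41920465-41922622, mm9) for proteins that bind GSK3, were both lowest with IL-33. Frat1 was at 9.74 FPKM in the control, 8.86 with IL-4 and 2.02 with IL-33, and Frat2 at 18.6, 15.4 and 4.91. Axin2, a negative regulator and known target of WNT signalling, was at 12.8, 11.8 and 4.88. The other 12 genes of the list stayed under the rule. In these 3 genes the IL-33 library stood far below the other libraries, which differed by less than 0.3.

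Other genes lower with IL-33 were spread over several lists or stood in none. Ahr, the aryl hydrocarbon receptor, was at 33.7 FPKM in the control, 35.3 with IL-4 and 10.6 with IL-33, and it was the 1 of 8 genes of its pathway list that passed the rule. The list of small G protein and lipid-coupled receptors went both ways, with 4 of 20 genes higher with IL-33 and 2 lower. Its higher members were Gpr84, P2ry13, C5ar1 and Hrh1, with differences of 2.02, 1.24, 1.15 and 1.14. Of the lower members, Lpar6, a lysophosphatidic acid receptor, was at 40.7, 36.3 and 12.3, and Gpr146, an orphan receptor, at 10.4, 9.60 and 2.75. Rgs2, which shortens G protein signals, was at 260, 245 and 106 FPKM. The transcription factor Nfe2 was at 179, 197 and 80.0, and Tob1, an antiproliferative protein, at 23.3, 22.4 and 8.91. Tnfaip8l2, known as TIPE2 and a brake on immune activation, was at 65.3, 54.2 and 19.9, and Usp18, which removes ISG15, at 47.5, 46.3 and 19.9. Usp18 was the 1 lower gene of 26 interferon-stimulated genes, of which 3 were higher. The remaining 9 genes of the class, Plekhf1, Klhl21, Fam46a, Zscan2, AA465934, Hhex, Tmem64, Tuba8 and Zkscan14, had differences from -1.41 to -1.01.

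The short list of genes that leaned to IL-4 was headed by a feedback inhibitor. Socs1 (chr16:10783902-10785629, mm9), which blocks JAK kinases, was at 2.80 FPKM in the control, 18.4 with IL-4 and 4.54 with IL-33. These levels correspond to about 95, 615 and 188 reads. Its change was 2.35 with IL-4 and 0.60 with IL-33, a difference of -1.75, and the change with IL-33 kept it out of the IL-4-alone class. A looser rule, set after values were seen, took genes with a change of at least 0.5 with IL-4 that was at least 0.5 above that with IL-33, at 5 FPKM or more with IL-4. It gave 8 genes, among them Socs1, D10Wsu102e, Cited2, Pet117, Nfil3, Msmp and Ccl7.

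Cited2, a regulator of p300 and CBP co-activators, was at 50.0 FPKM in the control, 90.9 with IL-4 and 39.1 with IL-33. Pet117, a gene linked to cytochrome oxidase assembly, was at 4.48, 8.94 and 3.72, or about 61, 120 and 62 reads. Nfil3, a basic leucine zipper factor with roles in type 2 immunity, was at 44.9, 65.6 and 32.8. In Cited2, Pet117 and Nfil3 the IL-4 library was the highest and the IL-33 library the lowest.

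Among 26 genes known as IL-4 targets in macrophages and B cells, 2 rose with IL-4 at 1 h, Socs1 and Cish, and the list's median change with IL-4 was 0.13. Egr2, Arg1 and Clec7a had changes with IL-4 of 0.76, 0.46 and 0.44. Between the cytokines, 3 (Cish, Tgm2 and Ccl17) were higher with IL-33 than with IL-4 and 1, Socs1, was lower, with a median difference of 0.04. Tgm2, a transglutaminase, was at 41.7 FPKM in the control, 49.5 with IL-4 and 121 with IL-33, while Ccl17 stayed under 2 FPKM in each library. Retnla, a gene of alternatively activated macrophages, was at 10.7 FPKM in the control, 12.2 with IL-4 and 8.84 with IL-33. None of 18 genes of the IL-4 receptor and STAT6 pathway passed the rule: Il4ra was at 8.11, 8.17 and 8.96, and Stat6 at 125, 119 and 130.

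The 3 genes that rose with both cytokines were Cish, Ccl7 and the predicted gene LOC100302567. Cish, an inhibitor of STAT5 signalling and a known STAT target, was at 10.0 FPKM in the control, 25.7 with IL-4 and 101 with IL-33, so that its changes were 1.28 and 3.29. Ccl7, a monocyte and eosinophil attractant, was at 20.4, 60.7 and 39.9, changes of 1.53 and 1.01, and Ccl2, beside it in role, was at 5.75, 17.6 and 11.6. LOC100302567 had a listed control value of 0, against 37.5 with IL-4 and 29.9 with IL-33, and such a 0 can be a failed estimate. The gene that fell with both, the ribosomal protein gene Rps27 (174, 4.94 and 73.7 FPKM), has near-identical copies and is uncertain. Fibroblast markers moved with Ccl2 and Ccl7: the summed level of 6 such genes was 6.11 FPKM in the control, 14.4 with IL-4 and 11.2 with IL-33, with Col1a1 at 0.44, 2.93 and 1.58. Of these 6, 3 rose with IL-4 and none with IL-33. The part of such cells in the Ccl2 and Ccl7 values was not tested, and in bulk RNA more cells of a type and more RNA per cell cannot be told apart.

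**Figure D4:**
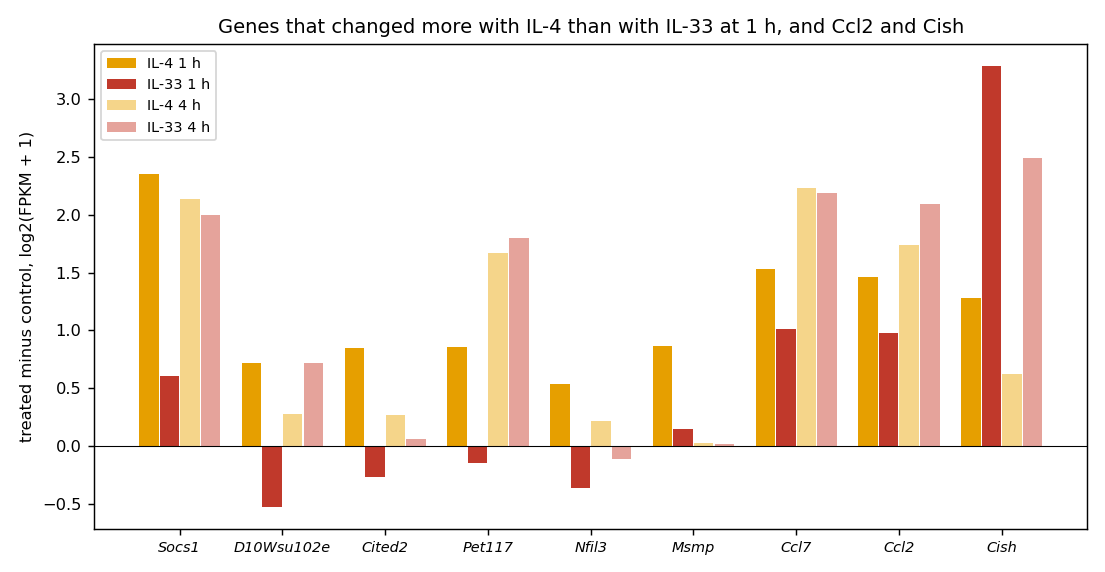
Bars give the change against the control of the same hour, log2(FPKM + 1), for 7 of the 8 genes that leaned to IL-4 and for Ccl2 and Cish, in the IL-4 and IL-33 libraries of 1 h and 4 h. Socs1, Pet117 and Ccl7 changed more with IL-4 at 1 h and by similar amounts with both cytokines at 4 h.

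Libraries of 4 h, which the selection of genes did not use, showed how these classes went on. Of the 180 genes that rose with IL-33 alone, 113 were up by the rule with IL-33 at 4 h, where 3.44% of all genes compared were. A further 32 lay between 0.5 and 1, 35 lay below 0.5 and none fell, and the median change was 1.28. With IL-4 at 4 h their median change was -0.01, and 3 of them changed by at least 0.5 in either direction: Pim2, a survival kinase, by 1.13, Bmp2 by 0.55 and Cxcl10 by -0.84. In 64 genes the change with IL-33 was larger at 4 h than at 1 h. Il13 went from 2.60 to 4.60, Il1b from 2.74 to 5.13, Ccl3 from 2.09 to 4.16, and Peg10, a retrotransposon-derived gene, from 1.58 to 5.03. Each change depends on the control of its own hour as well. Il1b was at 216 FPKM with IL-33 at 1 h and 243 at 4 h, while its control was at 33.3 and 6.29. For Ccl3 the levels with IL-33 were 1423 and 2827, and those of the control 354 and 166. Il13 was at 17.3 and 46.8 with IL-33, and at 2.13 and 1.02 in the control. Others had returned to the level of the control of that hour: Gem, a small GTPase, went from 2.44 to 0.18, Mxd1, an antagonist of MYC proteins, from 1.76 to 0.07, and Mcl1 from 1.07 to 0.15. The NF-kB inhibitors Nfkbiz, Nfkbia and Tnfaip3 had smaller changes at 4 h, of 4.00, 3.09 and 2.83.

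Of the 21 genes that fell with IL-33 alone, 4 were still down by the rule at 4 h, where 1.05% of all genes compared were, and 12 lay within 0.5 of the control or above it. Frat1, Frat2, Tob1 and Tmem64 made up the 4, at -1.25, -1.28, -1.25 and -1.01. B3gnt7 was at 0.11 and Lpar6 at -0.03. The lower class thus had a median change of -0.44 at 4 h.

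The genes that leaned to IL-4 at 1 h drew level by 4 h in part. Socs1 changed by 2.14 with IL-4 and 2.00 with IL-33 at 4 h, Pet117 by 1.67 and 1.80, and Ccl7 by 2.23 and 2.19. These 3 of the 8 genes rose at 4 h with either cytokine, where 0.236% of all genes compared rose with IL-4. Cited2 was at 0.26 and 0.06 and Msmp at 0.02 with both. Their changes with IL-4 were thus smaller at 4 h than at 1 h, when they were 0.85 and 0.87. Cish kept its order, with 0.62 for IL-4 and 2.49 for IL-33. The control of Pet117 was itself lower at 4 h, at 1.57 FPKM against 4.48 at 1 h. The level of Pet117 under IL-4 was not higher at 4 h, going from 8.94 FPKM to 7.19. Under IL-33 it went from 3.72 FPKM to 7.63. The larger IL-4 change of Pet117 at 4 h thus rests in part on the lower control.

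**Figure D5:**
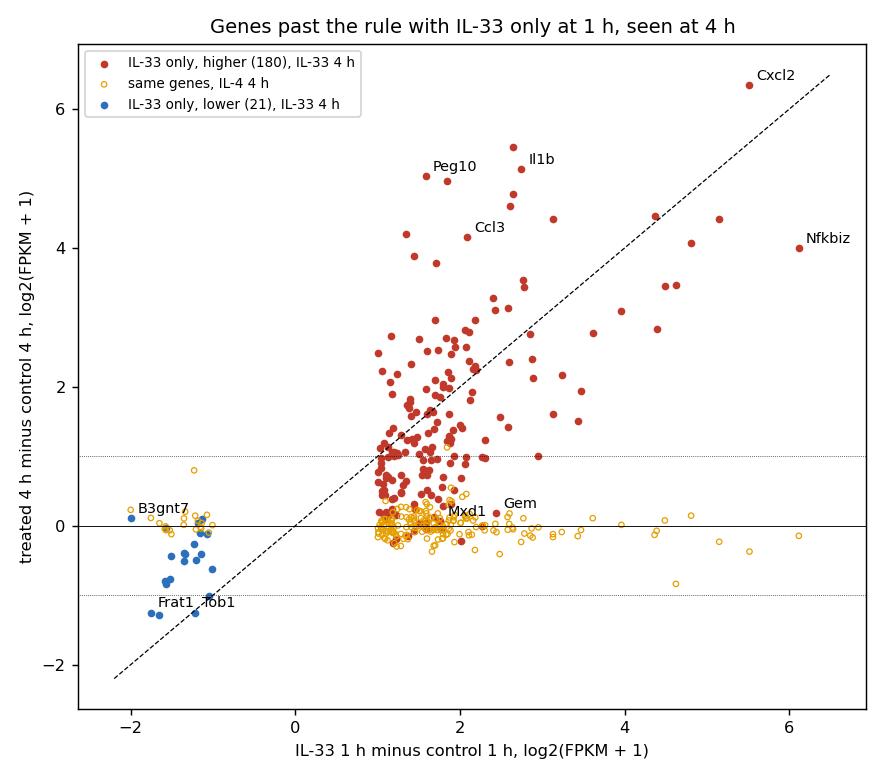
Each gene that rose (red) or fell (blue) with IL-33 alone is placed by its change with IL-33 at 1 h on the x axis and its change at 4 h on the y axis, in log2(FPKM + 1) against the control of the same hour; open circles give the same genes with IL-4 at 4 h. Of 180 red points 113 lie at 1 or above. Most open circles stay within 0.5 of 0. Those of 3 of the 180 genes do not, among them Pim2 at 1.13 and Cxcl10 at -0.84, nor does that of 1 gene that fell.

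Values at the rule of size run on without a gap. The genes just inside it on the higher side were Ninj1 at 1.01, Pmaip1 at 1.01 and Clec4d at 1.00, and B3gnt2, Fbxo11 and Socs3 lay just outside at 0.996, 0.991 and 0.990. On the lower side Pet117 was at -1.01 and Nudt7 at -1.01, with Abhd15 at -0.99 and Nrarp at -0.97 outside. The small RNA genes, which the counts leave out, held 42 differences of at least 1 and 38 of at most -1 among 156, in both directions. Eosinophil granule and identity genes, reference genes of all cells, glycolysis genes and cell cycle genes had no member past the rule, of 18, 16, 22 and 24 compared.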

How the data were processed

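RNA-seq values of 6 libraries were deposited in 4 tables, and the 3 libraries of 1 h are the subject here. The values are FPKM per RefSeq transcript as deposited by the authors. Per the submitters' processing notes, TopHat 1.4.1 (alignment, build mm9) and Cuffdiff 1.2.1 (quantification) were used, and each table was normalised separately. A list of the authors' log2 fold changes was deposited too and served to check which table holds which time point: for genes with 1 transcript, 100% of values matched the table of the same name within 0.01. The design assumed values per gene. Transcripts of a symbol were therefore summed here. Where a symbol had several loci, only the locus with the highest total FPKM over the deposited 1 h and 4 h values was used. A pseudocount of 1 was added, and genes with at least 1 FPKM in any of the 3 libraries were kept. Adding 1 understates the change of low genes.

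The named genes were the 15 largest differences in each direction at 5 FPKM or more in the higher treated library, IL-4-alone genes (up to 20), genes changed with both (up to 10), 9 receptor and cytokine genes and up to 6 members of each of 34 lists. Symbols of predicted genes and of small RNAs were skipped. The text gives a selection of these. It also names many genes outside this naming rule, picked after their values were seen. Among them are Peg10, Bmp2, Mxd1, Egr3, LOC100302567, Pde4b, Fosb, Fos, Egr1, Rgs2, Ccl2, Nfil3, Msmp and Col1a1. Further list members and genes at the edge of the rule of size were also added in this way. An item that the rules would name is not reported here. The members and lists were chosen with earlier results of these data known. Read numbers are estimates from the value of 1 read and the shortest matched transcript. In simulated data the steps returned large rises planted for 1 cytokine in genes at 5 FPKM or more in the control. Falls, changes with both cytokines, changes near the rule of size and spread between cultures were not simulated. Scripts ran in Python 3.11.15 with pandas 2.3.3, numpy 2.4.6 and matplotlib 3.10.9. Alternatives changed the pseudocount, the filter, the transcript and locus choice, the centring, the rule of size, the limit for the other cytokine, the control library and the small RNA genes.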

Additional observations from a re-analysis of the deposited data

How the results depend on the processing

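With 1 library per group, the effect of a cytokine and a difference between cultures or libraries cannot be told apart. No paired analysis was possible because each group had 1 library. The main counts were a difference between the cytokines that was higher for 210 genes and lower for 33, 180 and 21 that rose or fell with IL-33 alone, 1 and 0 with IL-4 alone, and 3 that rose with both. A pseudocount of 0.1 gave 75 lower, 59 that fell with IL-33 alone, 2 and 4 with IL-4 alone and 14 with both. A pseudocount of 5 gave 12 lower and 7 that fell with IL-33 alone, while 122 of the 180 risers stayed in their class. At a minimum of 5 FPKM, 0 genes rose with IL-4 alone. Taking the transcript of highest mean FPKM gave 58 lower, 37 that fell with IL-33 alone, 2 and 16 with IL-4 alone and 9 with both. A rule of 1.5 log2 gave 113 higher, 5 lower, 99 and 3 with IL-33 alone, 0 that rose with IL-4 alone and 1 with both. A limit of 1 for the other cytokine gave 2 and 1 with IL-4 alone, and a limit of 0.25 gave 0 that rose. The control of 4 h gave 104 that rose with IL-33 alone, 3 and 1 with IL-4 alone and 133 with both. It kept 95 of the 180 risers in their class and 12 of the 21 genes that fell. Keeping small RNA genes gave 71 lower, 22 and 4 with IL-4 alone and 17 with both. Except as the construction of a setting shows, the cause was not tested. Under the settings that recompute single genes, no named gene past the rule changed sign. Of 199 named genes, a pseudocount of 5 moved 34 by at least 0.5 or across the rule, and a pseudocount of 0.1 moved 13. The transcript of highest mean FPKM moved 3, and centring on the median and the ratio of the treated libraries moved 1 each. Summing all loci moved none. Leaving out genes with a failed estimate, an alternative chosen after seeing the data, also moved none. Low genes are limited by depth, since an FPKM of 1 in a transcript of 1 kb rests on about 19.6 reads in the control.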
